A study of Rattus norvegicus with 50 samples.

Results

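Fgf23, Tacr1, Egr1 and Dmbt1 were 4 of 14506 genes measured in rat liver after brain injury, and they were chosen because their transcripts were higher in livers of animals given erythropoietin (EPO) than in vehicle livers 24 h after the injury. Liver RNA came from 50 male Sprague Dawley rats about 3 months old, 1 Affymetrix Rat Gene 1.0 ST array per animal, in 10 groups of 5. In 9 groups the brain was injured by controlled cortical impact, in which a driven piston strikes the cortex. These animals received EPO (2500 IU/kg), anakinra (100 mg/kg), which blocks the interleukin-1 receptor, or saline vehicle, and punches of the median liver lobe were taken at 24 h, 72 h or 7 days. The remaining group was intact sham animals, whose labels give no time and no vehicle, so injury cannot be told apart from handling or time of collection. The dosing schedule is not given in the sources used here. All values are log2 values, so a difference of 1 is a doubling, group values are means ± SD of 5 arrays, and each gene is represented by its probe with the highest mean. Nothing in the labels pairs animals across groups.

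The 4 genes have unrelated products. Fgf23 encodes a hormone, made mainly by osteocytes, that makes the kidney excrete phosphate and lowers active vitamin D; in mice EPO also raises it in bone marrow. Tacr1 encodes the neurokinin-1 receptor, the G protein-coupled receptor of the tachykinin peptide substance P. Egr1 is a zinc finger transcription factor of the immediate-early class, switched on within minutes of a growth signal through serum response factor bound to CArG boxes of its promoter. Dmbt1 is a secreted glycoprotein of mucosal and bile duct epithelia, built of scavenger receptor cysteine-rich domains, that binds microbes. EPO itself acts through the EPO receptor, the kinase JAK2 and the transcription factor STAT5, above all in red cell precursors.

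The values that chose them are a description and support nothing further. In EPO against vehicle livers at 24 h, limma gave adjusted p-values of 0.0117 for Fgf23 and 0.0285 for Egr1 and Dmbt1, just inside the threshold of 0.05, and 0.065 for Tacr1, just outside it. The remaining gene inside the threshold was Csf2rb (0.0285), the shared beta chain of cytokine receptors. Since the choice also rested on the time shape under EPO, every comparison that holds an EPO group is given for the 4 genes as a difference with its standard error (SE) and without a p-value.

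RefSeq promoter sequence (build GRCr8) was matched for Tacr1 and Egr1, and the 250 bases before each start site are shown with matches to short elements marked. Capitals mark the 2 CArG boxes found in the Egr1 window, at 105 to 96 and 83 to 74 bases before the start. In Tacr1 they mark the core of the cyclic AMP response element (TGACG) and a TATA box (TATAAA). The TGACG matches of the Egr1 window are left in small letters. Bases further upstream were not searched.
Egr1, chr18:26736828-26737077, plus strand: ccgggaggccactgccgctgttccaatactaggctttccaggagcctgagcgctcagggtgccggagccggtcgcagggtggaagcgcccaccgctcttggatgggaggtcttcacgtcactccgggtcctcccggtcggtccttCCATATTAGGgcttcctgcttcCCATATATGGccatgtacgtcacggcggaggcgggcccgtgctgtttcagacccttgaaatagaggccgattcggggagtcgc
Tacr1, chr4:116478367-116478616, plus strand: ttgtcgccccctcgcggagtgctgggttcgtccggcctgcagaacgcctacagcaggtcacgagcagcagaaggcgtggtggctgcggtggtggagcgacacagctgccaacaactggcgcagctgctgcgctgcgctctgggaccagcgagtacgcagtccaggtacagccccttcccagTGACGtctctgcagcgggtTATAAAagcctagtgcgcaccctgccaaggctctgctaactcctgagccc
Searched on both strands, CArG boxes occurred in 1.5% of 33469 RefSeq promoter windows of this length, and 7 windows held at least 2, as that of Egr1 did. TGACG occurred in 18.2% of the windows, with 2 matches in Egr1 and 1 in Tacr1, and TATAAA in 12.9%. The letters of the STAT5-type element TTCNNNGAA (7.67% of windows) and of the EGR site GCGNGGGCG (4.29%) were not in either window. A match is a description of letters, not of a bound factor.

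The arrays had medians from 6.66 to 6.89. The standard deviation over all probes, 2.11 in the median array, was 1.99 to 2.03 in 4 of the vehicle arrays, called narrow here: array 3 at 24 h, arrays 2 and 5 at 72 h and array 3 at 7 days. All 7 hepatocyte markers of the list, such as albumin (Alb), were at 11.23 or above in every array. Fgf23, Tacr1 and Dmbt1 had means below the median of all gene means, and the table held no detection call. In bulk liver, more cells of a type and more RNA per cell cannot be told apart.

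Fgf23 (probe 10859003) was high in EPO livers at 24 h and 72 h and back among the other groups at 7 days. In EPO livers it was 5.97, 5.65, 6.12, 6.05 and 6.24 at 24 h, against 5.17, 5.34, 5.33, 5.27 and 4.86 in vehicle livers. Every EPO array lay above every vehicle array, and the difference was 0.81 (SE 0.14), or 1.76-fold. At 72 h it was 5.87, 6.25, 7.34, 6.45 and 6.49 in EPO livers, against 5.37, 5.33, 5.19, 5.16 and 5.39 in vehicle livers, a difference of 1.19 (SE 0.14), or 2.28-fold. The groups did not overlap, and array 3 stood highest; without it the difference was 0.98. At 7 days it was 5.16, 5.22, 5.18, 5.43 and 5.16 in EPO livers and 5.20, 5.19, 5.59, 5.32 and 5.17 in vehicle livers, which overlapped (-0.06, SE 0.14). Anakinra livers had 5.30, 5.35, 5.36, 4.82 and 5.33 at 24 h, 5.11, 5.26, 5.28, 5.22 and 5.22 at 72 h, and 4.91, 5.08, 5.17, 4.77 and 5.0 at 7 days. Sham livers had 5.13, 5.37, 5.02, 5.12 and 5.42. All 10 EPO arrays at 24 h and 72 h lay above the highest of the 35 arrays without EPO (5.59). In the order of the group means, EPO at 72 h (6.48 ± 0.54, SD) and EPO at 24 h (6.01 ± 0.22) overlapped each other. The next group, vehicle at 7 days (5.30 ± 0.18), was separate from EPO at 24 h, and each neighbour from there down to anakinra at 7 days (4.99 ± 0.16) overlapped.

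Tacr1 (10856525) was also high in EPO livers at 24 h and 72 h, most so at 72 h. At 24 h it was 7.53, 7.29, 7.43, 7.65 and 7.57 in EPO livers, against 6.75, 7.01, 6.86, 7.03 and 6.67 in vehicle livers, with no overlap and a difference of 0.63 (SE 0.13), or 1.55-fold. At 72 h it was 7.73, 8.25, 8.03, 8.05 and 7.97 in EPO livers, against 6.46, 6.89, 6.82, 6.83 and 7.05 in vehicle livers, a difference of 1.20 (SE 0.13), or 2.29-fold. All 5 EPO arrays at 72 h were also above all 5 EPO arrays at 24 h, by 0.51 (SE 0.13) on average. At 7 days it was 7.16, 6.82, 6.92, 6.93 and 6.8 in EPO livers and 6.94, 6.79, 7.43, 6.89 and 7.50 in vehicle livers, with a difference of -0.19 (SE 0.13) and overlapping arrays. Vehicle arrays 3 and 5 at 7 days were the highest of all arrays without EPO. Anakinra livers had 6.49, 6.74, 6.79, 6.75 and 7.04 at 24 h, 6.59, 6.91, 6.68, 6.88 and 6.60 at 72 h, and 6.36, 6.61, 6.30, 6.48 and 7.20 at 7 days. Sham livers had 6.75, 6.59, 6.60, 6.29 and 6.56, the lowest mean of the 10 groups (6.56 ± 0.17). In the order of means only EPO at 72 h (8.01 ± 0.18) was separate from its neighbour, EPO at 24 h (7.49 ± 0.14). EPO at 24 h overlapped vehicle at 7 days (7.11 ± 0.33), and the neighbours below it overlapped too.

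Egr1 (10800919) was highest in EPO livers at 24 h, and its groups overlapped at 72 h. At 24 h it was 9.99, 8.76, 9.52, 8.87 and 8.91 in EPO livers, against 7.78, 8.27, 8.32, 7.98 and 8.06 in vehicle livers, a difference of 1.13 (SE 0.22), or 2.19-fold. The groups did not overlap, and EPO arrays 1 and 3 stood above the other EPO arrays. At 72 h it was 8.73, 8.62, 8.56, 9.03 and 8.64 in EPO livers, against 7.98, 9.48, 8.13, 8.86 and 8.27 in vehicle livers, which enclosed the EPO values (0.17, SE 0.22). Vehicle array 2, a narrow array, lowered the difference, which was 0.41 without that array and 0.40 without all narrow arrays. Leaving out vehicle array 1 gave 0.03. At 7 days it was 8.32, 7.97, 8.19, 8.31 and 8.40 in EPO livers and 8.49, 8.47, 8.42, 8.74 and 8.21 in vehicle livers (-0.23, SE 0.22). Anakinra livers had 8.77, 8.63, 8.48, 9.01 and 8.06 at 24 h, 9.32, 9.0, 9.16, 8.52 and 8.14 at 72 h, and 8.17, 7.77, 8.09, 8.08 and 8.30 at 7 days. Sham livers had 7.97, 8.04, 8.12, 8.17 and 9.0. Only 2 EPO arrays at 24 h lay above all 35 arrays without EPO, of which the highest was vehicle array 2 at 72 h (9.48), a narrow array. In the order of means, from EPO at 24 h (9.21 ± 0.53) and anakinra at 72 h (8.83 ± 0.49) down to vehicle at 24 h (8.08 ± 0.22), every pair of neighbours overlapped. The residual SD of Egr1, the spread within groups, was 0.37 and larger than that of 97.7% of the genes; it was 0.23 for Fgf23, 0.22 for Tacr1 and 0.26 for Dmbt1.

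Dmbt1 (10711575) was high in EPO livers at 24 h and 72 h, and part of the difference from vehicle remained at 7 days. At 24 h it was 7.48, 7.65, 7.56, 7.64 and 7.52 in EPO livers, against 7.15, 7.31, 6.41, 6.56 and 6.52 in vehicle livers, a difference of 0.78 (SE 0.16), or 1.72-fold. The EPO arrays lay close together while the vehicle arrays fell into 2 higher and 3 lower ones, with no overlap between groups. At 72 h it was 7.51, 7.82, 7.52, 7.72 and 7.97 in EPO livers, against 7.13, 6.77, 7.17, 7.07 and 6.73 in vehicle livers, a difference of 0.74 (SE 0.16), or 1.67-fold, again without overlap. At 7 days it was 7.52, 7.31, 7.44, 6.91 and 7.23 in EPO livers, against 6.93, 6.88, 6.88, 6.77 and 6.54 in vehicle livers. There 4 of 5 EPO arrays were above every vehicle array, and the difference was 0.48 (SE 0.16), or 1.40-fold. Anakinra livers had 7.40, 6.99, 7.05, 7.17 and 6.98 at 24 h, 7.44, 6.92, 6.87, 7.04 and 6.63 at 72 h, and 6.79, 6.87, 7.21, 7.06 and 7.22 at 7 days. Sham livers had 6.53, 6.47, 7.19, 7.38 and 7.00. All 10 EPO arrays at 24 h and 72 h lay above the highest array without EPO (7.44). EPO groups held the first 3 places in the order of means (7.71 ± 0.20 at 72 h, 7.57 ± 0.07 at 24 h, 7.28 ± 0.24 at 7 days), and every pair of neighbours overlapped.

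**Figure D1:**
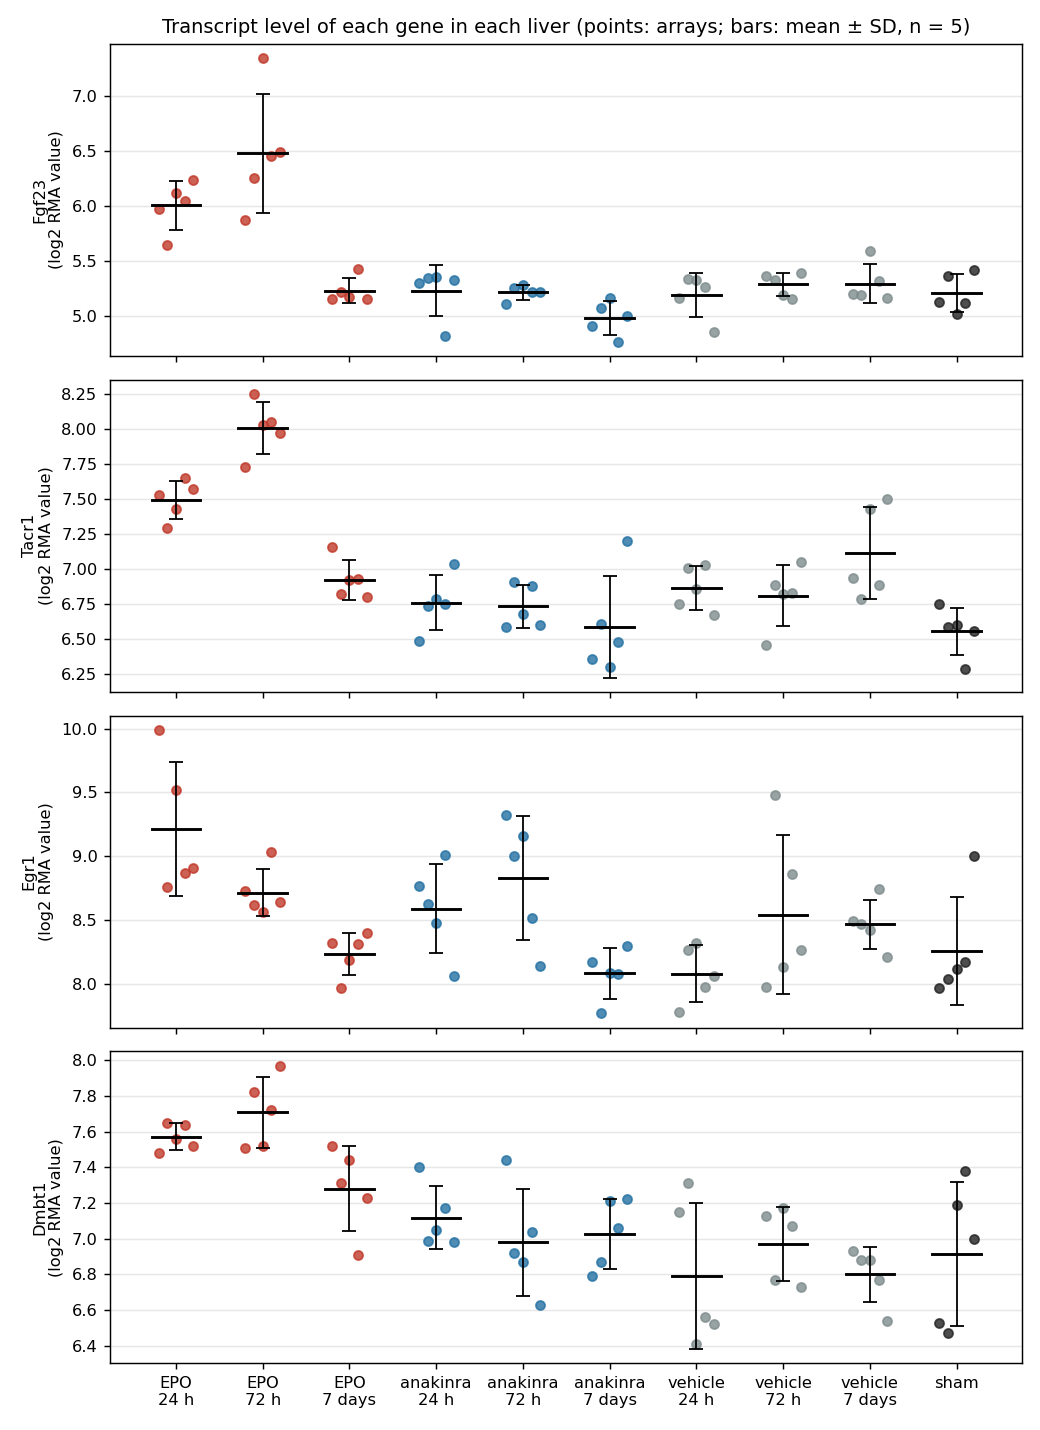
Log2 RMA value of Fgf23, Tacr1, Egr1 and Dmbt1 (rows, each with its own scale) in each of 50 livers by group; points are arrays, and black bars are the mean ± SD of 5 arrays. The EPO arrays at 24 h and 72 h stand above every array without EPO for Fgf23 and Dmbt1, while those of Egr1 at 72 h lie below the highest vehicle array of that time (9.48).

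The 4 time courses under EPO are set side by side as values, with no test between genes. Between 24 h and 72 h the EPO minus vehicle difference grew by 0.38 (SE 0.20) for Fgf23 and by 0.57 (SE 0.19) for Tacr1, changed by -0.04 (SE 0.22) for Dmbt1, and fell by 0.96 (SE 0.31) for Egr1. Single arrays weigh on these values: without EPO array 3 at 72 h the Fgf23 difference was 0.98 at 72 h beside 0.81 at 24 h, and without vehicle array 2 at 72 h that of Egr1 was 0.41 beside 1.13. Between 72 h and 7 days it fell by 1.26 (SE 0.20) for Fgf23, by 1.38 (SE 0.19) for Tacr1, by 0.26 (SE 0.22) for Dmbt1 and by 0.40 (SE 0.31) for Egr1. All 4 genes were free of overlap with vehicle at 24 h, 3 at 72 h and 0 at 7 days. Over all genes, all 5 EPO arrays were above all 5 vehicle arrays for 0.641% at 24 h, 1.11% at 72 h and 0.662% at 7 days. The members were chosen on this difference, so nothing is read from those counts. Among the 14506 genes the EPO minus vehicle difference of Egr1 ranked 4 from the top at 24 h and 2019 at 72 h, that of Fgf23 13 and 43, that of Dmbt1 16 and 116, and that of Tacr1 31 and 42.

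The comparison of EPO with anakinra shares the EPO arrays, so its values are given beside those against vehicle and add no separate evidence. For Fgf23 the EPO minus anakinra difference was 0.77 at 24 h, 1.26 at 72 h and 0.24 at 7 days (SE 0.14 each), and for Tacr1 it was 0.73, 1.27 and 0.34 (SE 0.13 each). For both genes the EPO and anakinra arrays did not overlap at 24 h or 72 h. For Egr1 it was 0.62 at 24 h (SE 0.22), with 2 of 5 EPO arrays above every anakinra array, -0.11 at 72 h and 0.15 at 7 days. For Dmbt1 it was 0.45 at 24 h and 0.73 at 72 h (SE 0.16 each), without overlap at either time. At 7 days the Dmbt1 difference was 0.25 (SE 0.16, 95% interval from -0.06 to 0.56), beside 0.48 against vehicle. Of all genes, 0.283% at 24 h and 1.48% at 72 h had every EPO array above every anakinra array. At 24 h, anakinra livers themselves were above vehicle livers by 0.51 (SE 0.22) for Egr1, where 4 of 5 exceeded the highest vehicle array, and by 0.33 (SE 0.16) for Dmbt1. For Fgf23 (0.04) and Tacr1 (-0.10) the same difference was smaller than its SE. The vehicle arrays of this comparison helped to choose the genes, and it was not tested.

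**Figure D2:**
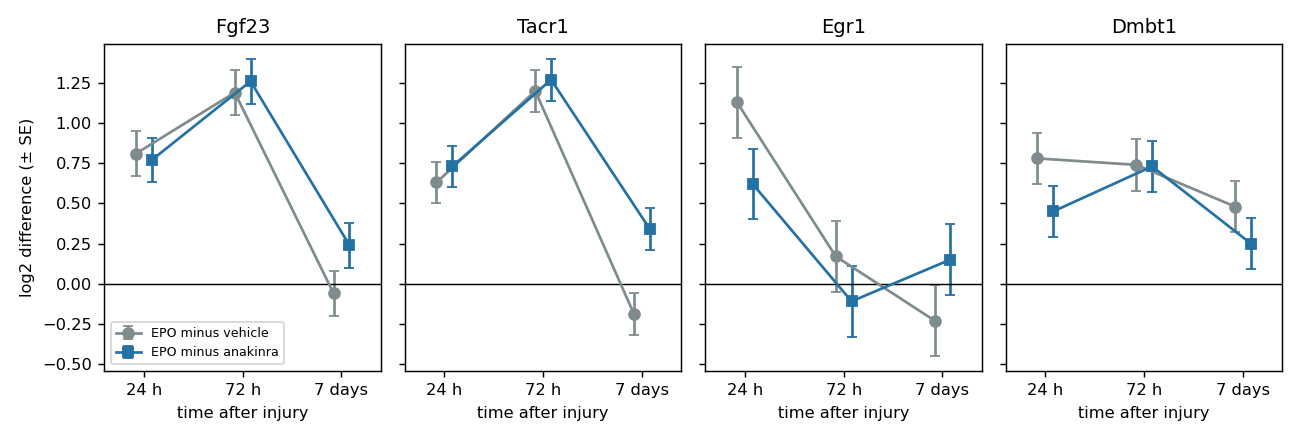
Log2 difference (y axis, ± SE) at 24 h, 72 h and 7 days (x axis) of EPO minus vehicle (circles) and EPO minus anakinra (squares), 1 panel per gene. Fgf23 and Tacr1 peak at 72 h near 1.2 against either group and Egr1 at 24 h, where its difference is 1.13 against vehicle and 0.62 against anakinra.

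Neither injury with vehicle nor injury with anakinra moved these transcripts past the threshold in the comparisons tested, under the main settings. In 7 comparisons that held no EPO array and no vehicle array of 24 h, limma called 0 of the 28 gene-by-comparison tests after Benjamini-Hochberg adjustment over all genes, and 4 had an unadjusted p under 0.05. Of all 14506 genes, 839 to 2047 had an unadjusted p under 0.05 in each of these comparisons, so nothing is read from the 4. The time shape under EPO was taken against vehicle and anakinra, so their arrays may have entered the choice of the genes. These tests are therefore not fully independent of that choice. The share of all genes called was 0.193%, 0.11% and 1.83% in anakinra against sham at 24 h, 72 h and 7 days, and 0% in vehicle against sham at 72 h and at 7 days. It was 0% and 0.0138% in anakinra against vehicle at 72 h and 7 days. A count of 0 among 4 genes is therefore near what the table gives anywhere. Differences in these 7 comparisons ran from -0.52 to 0.57. Vehicle minus sham at 24 h was not tested, since its vehicle arrays helped to choose the genes. It was 0.31 for Tacr1 (SE 0.13, 95% interval from 0.04 to 0.58). For Fgf23, Egr1 and Dmbt1 it was -0.02, -0.18 and -0.12.

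For Tacr1 the highest tested difference was vehicle minus sham at 7 days. It was 0.55 (SE 0.13), with 7.11 ± 0.33 against 6.56 ± 0.17. All 5 vehicle arrays were above every sham array, which held for 0.538% of all genes, and the limma adjusted p was 0.492. Anakinra minus vehicle at 7 days, which shares those vehicle arrays, was -0.52 (SE 0.13, limma adjusted p = 0.265). It passed without anakinra array 5, the high array of its group (-0.68, adjusted p = 0.0188), and under none of the other alternatives. Fgf23 differed by -0.31 (SE 0.14, adjusted p = 0.605) in the same comparison, with 4 of 5 anakinra arrays below every vehicle array. Egr1 in anakinra livers at 72 h was 8.83 ± 0.49 against 8.26 ± 0.42 in sham, a difference of 0.57 (SE 0.22, limma adjusted p = 0.548). With array weights it was 0.69 and passed (adjusted p = 0.0262). For Dmbt1, anakinra minus sham was 0.20, 0.06 and 0.11 at 24 h, 72 h and 7 days, with 95% intervals from -0.25 at the lowest to 0.51 at the highest. For Fgf23 the same differences were 0.02, 0.00 and -0.23, with intervals from -0.51 to 0.31. The arrays thus bound these changes only loosely.

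The partners of each gene were read from lists of pathway members. Differences of single list genes were not taken again without the narrow vehicle arrays, so small differences of dim genes are only described. Of the 20 measured genes of the FGF23 and phosphate axis, 0 passed in EPO against vehicle at 24 h, 72 h or 7 days, where limma called 0.0276%, 2.72% and 0.365% of all genes. Their median differences were 0.00, -0.05 and 0.00, beside -0.025, -0.026 and -0.003 over all genes, and 2, 2 and 0 had an unadjusted p under 0.05. Of all 14506 genes, 1572, 2908 and 721 had an unadjusted p under 0.05 at these times. The receptors Fgfr1, Fgfr2, Fgfr3 and Fgfr4 differed by -0.09 to 0.11 at 24 h, and the co-receptor gene Kl (klotho) by 0.00. Furin, which cleaves FGF23, differed by 0.07, and Galnt3, which protects it from cleavage by adding sugars, by -0.12. The smallest p at 24 h was that of Slc34a2, a sodium-phosphate cotransporter, at 9.48 in EPO and 8.82 in vehicle livers (0.66, SE 0.23, limma adjusted p = 0.442). At 72 h it was that of Phex, a protease that restrains FGF23 in bone, with -0.25 (adjusted p = 0.124), and at 7 days that of Galnt3 with 0.10 (adjusted p = 1).

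Of the 13 tachykinin signalling genes, 0 passed at 24 h and 7 days and Arrb1 rose at 72 h. Arrb1, beta-arrestin 1, which takes G protein-coupled receptors out of signalling, was 8.78 in EPO and 8.41 in vehicle livers (0.37, SE 0.10, limma adjusted p = 0.0196), with 3 of 5 EPO arrays above every vehicle array. The peptide genes Tac1, which encodes substance P, Tac3 and Tac4 differed by -0.17, -0.22 and -0.20 at 24 h and did not pass. Their levels in vehicle livers at 24 h were 4.62, 5.97 and 6.53, below the lowest array median (6.66). The sister receptors Tacr2 and Tacr3 differed by -0.12 and -0.05 at 24 h and by -0.18 and 0.04 at 72 h, where Tacr1 differed by 1.20. The median of the list was -0.05 at 24 h, -0.06 at 72 h and 0.00 at 7 days.

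Of the 30 measured genes of the EGR and immediate-early list, 0 passed at 24 h, where 5 had an unadjusted p under 0.05. Of all 14506 genes, 1572 had an unadjusted p under 0.05 at that time. Jun, a subunit of the AP-1 factor, was 9.56 in EPO and 8.44 in vehicle livers at 24 h, a difference of 1.12 (SE 0.36) without overlap between groups, and its limma adjusted p was 0.442. The paralogs Egr2, Egr3 and Egr4 differed by -0.15, -0.18 and -0.27 at 24 h, Fos by -0.03, and the EGR co-repressors Nab1 and Nab2 by 0.05 and -0.12. None of these passed, and the median of the list was 0.06. At 72 h 1 gene of the list rose: Klf6, a zinc finger factor, at 7.73 in EPO and 7.27 in vehicle livers (0.46, SE 0.10, limma adjusted p = 0.00424), and no EPO array overlapped a vehicle array. At 7 days 0 passed, with the smallest p for Ier2 (-0.35, adjusted p = 0.742).

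Of the 12 measured genes of the scavenger receptor cysteine-rich family, to which Dmbt1 belongs, 4 rose at 72 h and 0 at 24 h or 7 days. Cd163, the macrophage receptor for haptoglobin-bound hemoglobin, was 9.88 in EPO and 9.10 in vehicle livers (0.78, SE 0.14, limma adjusted p = 0.000294). Cd5l, a protein secreted by macrophages, differed by 0.94 (SE 0.24, adjusted p = 0.0178), Marco, a macrophage receptor for bacteria, by 0.64 (SE 0.15, adjusted p = 0.00644), and Lgals3bp by 0.60 (SE 0.16, adjusted p = 0.0266). Cd163 and Marco also stand on the macrophage marker list. The median of the family was -0.17 at 72 h and -0.08 at 24 h, below that of all genes at both times. The median of all genes is not matched for level. The family was not fitted again without the narrow vehicle arrays, so no shift of the family is read from this. At 24 h, where Dmbt1 was 0.78 above vehicle, the family ranged from -0.22 to 0.28.

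**Figure D3:**
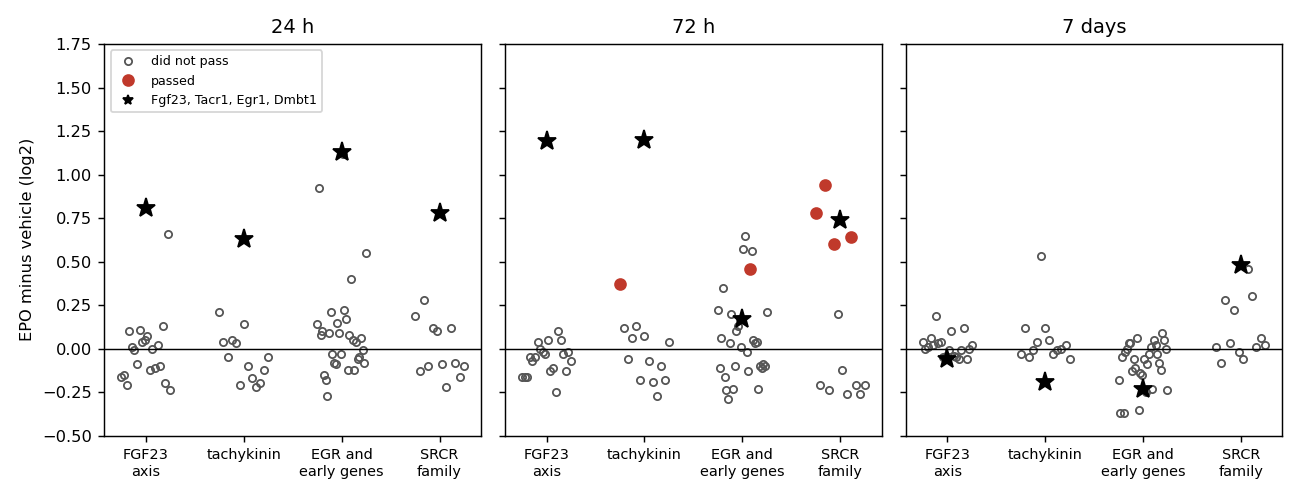
EPO minus vehicle log2 difference (y axis) of each measured gene of the 4 pathway lists (x axis) at 24 h, 72 h and 7 days; filled points passed the test, open points did not, and stars are Fgf23, Tacr1, Egr1 and Dmbt1, each with its own list. At 24 h no list gene passed and the point of Jun (1.12) lies under the star of Egr1, and at 72 h the passing genes were Arrb1, Klf6, Cd163, Cd5l, Marco and Lgals3bp.

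Markers of granulocytes, red cell precursors and macrophages rose under EPO at 72 h, and 0 of them passed at 24 h. The mean level of the 10 granulocyte markers was 6.21 (arrays from 6.17 to 6.24) in EPO livers at 24 h, 6.8 (6.29 to 7.22) at 72 h and 6.05 (5.84 to 6.19) at 7 days. In vehicle livers it was 6.04 (5.86 to 6.24), 6.09 (5.96 to 6.23) and 6.0 (5.82 to 6.26) at these times. Of the 10, 0 passed at 24 h, 5 rose at 72 h and 0 passed at 7 days. The 5 were Mmp8, neutrophil collagenase, with 2.23, Ngp with 1.84, S100a9 with 1.37, S100a8 with 0.71 and Mmp9 with 0.43. At 24 h Mmp8 differed by 0.88 and Ngp by 0.63. Members of the list also lay lower in EPO livers without passing: at 72 h Mpo, myeloperoxidase, differed by -0.27, with 4 of 5 EPO arrays below every vehicle array, and Elane, neutrophil elastase, by -0.20. At 24 h Mpo differed by -0.24 and Camp, an antimicrobial peptide, by -0.14, so the list's mean level does not describe each member. The mean level of 11 erythroid markers was 7.15 (7.00 to 7.43), 9.42 (8.59 to 10.35) and 9.0 (8.62 to 9.80) in EPO livers at 24 h, 72 h and 7 days. In vehicle livers it was 6.73 (6.44 to 7.08), 7.26 (6.57 to 7.94) and 7.10 (6.62 to 7.48), and 0, 11 and 9 of the 11 rose. At 7 days the erythroid markers were thus still high in EPO livers, where Fgf23 (5.23 ± 0.11) and Tacr1 (6.92 ± 0.14) overlapped the vehicle arrays. Of 9 macrophage markers 0, 6 and 0 rose, with a mean level of 9.56 (9.45 to 9.68) in EPO and 8.98 (8.65 to 9.34) in vehicle livers at 72 h. Of 7 markers of cholangiocytes, the bile duct cells known to make Dmbt1, 0 passed at any time, and their mean level was 6.47 (6.40 to 6.52) in EPO and 6.55 (6.39 to 6.66) in vehicle livers at 24 h. Of 7 pancreas markers Pnlip fell at 72 h (-0.33, limma adjusted p = 0.00777) and 0 rose. Differences of single marker genes were not taken again without the narrow vehicle arrays. The part of these cells in the levels of the 4 genes was not tested.

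**Figure D4:**
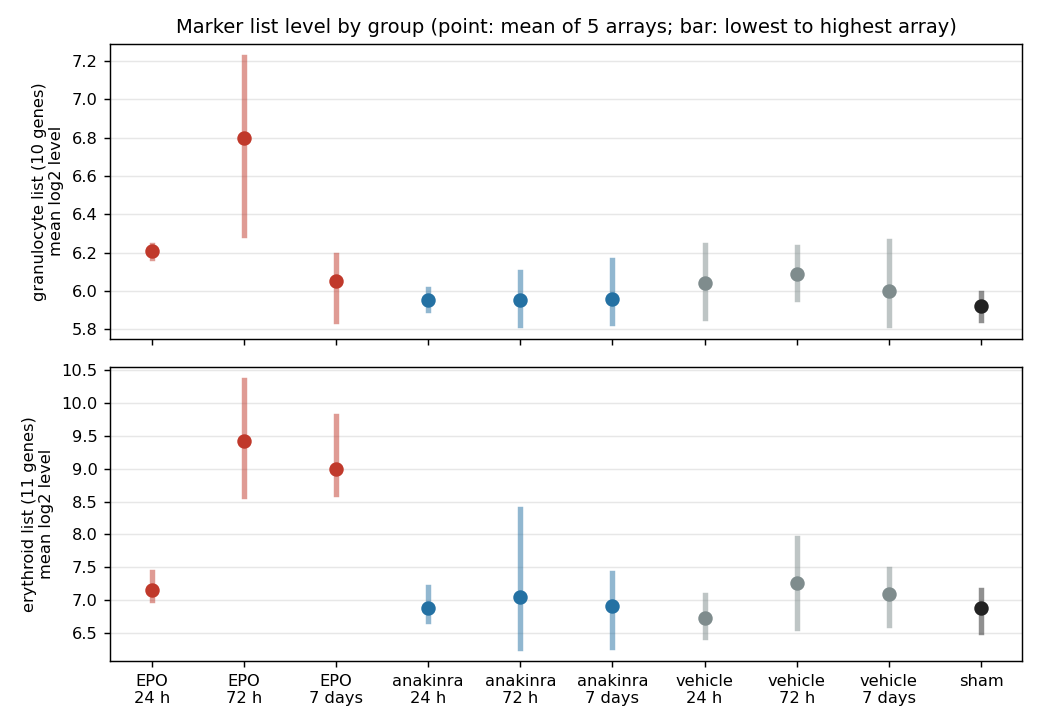
Mean log2 level (y axis) of the granulocyte list (top) and the erythroid list (bottom) in each group (x axis); points are means of 5 arrays and bars run from the lowest to the highest array. The granulocyte level peaks in EPO livers at 72 h and is back near vehicle at 7 days, while the erythroid level is 9.42 and 9.0 at those times.

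The genes whose patterns over the 50 arrays were nearest to Fgf23 were Mmp8 (Pearson r = 0.86), Ngp, a neutrophil granule protein (0.85), Tacr1 (0.83), Csf2rb (0.79) and S100a9, a calcium-binding protein of neutrophils (0.77). Those nearest to Tacr1 were the same apart from the pair itself: Csf2rb (0.86), Mmp8 (0.83), Fgf23 (0.83), Ngp (0.80) and S100a9 (0.79). These likenesses lie mostly in the group means, where r was 0.91 to 0.96 over 10 groups. As deviations from group means r was -0.01 to 0.42 for the genes near Fgf23 and 0.21 to 0.44 for those near Tacr1. Nearest to Dmbt1 were Adam23, a membrane protein of the disintegrin family (0.80), Csf2rb (0.70), Lifr, the leukemia inhibitory factor receptor (0.69), Mmp8 (0.67) and Glipr1 (0.66), and Adam23 also followed it within groups (0.57). Egr1 had no close neighbour: its nearest were Ifitm3 (0.52), Nrros (0.47), Hist1h4b (0.46), Serpinb6b (0.45) and Pkp2 (0.45). The arrays share groups and normalization, so these values describe likeness and carry no p. The EPO minus vehicle difference of Adam23, which its likeness to Dmbt1 fixes in part, was 0.32 at 24 h, 0.73 at 72 h and 0.31 at 7 days. In chromosomal order in RefSeq (GRCr8), 16 measured genes are the 2 nearest on each side of the 4 genes, and 0 of them passed in EPO against vehicle at any time, with differences from -0.24 to 0.27.

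Within groups the 4 genes did not track each other. The deviations of each array from its group mean entered the choice of the genes at most through their spread, not through relations between genes. They gave Pearson r from -0.13 to 0.21 over the 6 pairs (n = 50 arrays, two-sided permutation test within groups, adjusted p from 0.735 to 0.927). For Fgf23 with Tacr1, whose group means had r = 0.96 over 10 groups, r was 0.21 and Spearman's rho 0.23 (permutation p = 0.146 and 0.133, adjusted 0.735 and 0.51). Without the 2 arrays farthest from the median r was 0.18. Tacr1 and the granulocyte level did vary together within groups over the 50 arrays. The list holds Mmp8, Ngp and S100a9, which were among the genes nearest to Tacr1 on the same arrays. The relation is therefore not separate from that likeness. In a family of 12 relations of the 4 genes with granulocyte, erythroid and macrophage levels, chosen after the data were seen, Tacr1 with the granulocyte level had r = 0.48 and rho = 0.55 (n = 50, permutation p = 0.0012 and 0.00046). The adjusted values were 0.0144 and 0.00552, and r was 0.54 without the 2 farthest arrays. It was 0.50 (adjusted p = 0.0226) without the EPO arrays at 72 h and 0.53 (adjusted p = 0.0322) in the 35 arrays without EPO. Without the narrow arrays r was 0.43 (adjusted permutation p = 0.0533) and rho 0.51 (0.0176), so the call by r ended there. Fgf23 with the granulocyte level had r = 0.36 and rho = 0.36 (permutation p = 0.185 and 0.0147, adjusted 0.37 and 0.0881), which did not pass over all 50 arrays. It passed without the EPO arrays at 72 h (r = 0.43, rho = 0.45, adjusted permutation p = 0.0226 and 0.0157) and in the 35 arrays without EPO (r = 0.51, rho = 0.48, adjusted permutation p = 0.0259 and 0.027). Without the narrow arrays it was 0.29 (adjusted permutation p = 0.521). None of the other 10 relations passed by r or rho over the 50 arrays; the highest was Dmbt1 with the macrophage level (r = 0.32, rho = 0.30, adjusted permutation p = 0.252 and 0.225). The SD of the array, which marks narrow arrays, had r = -0.13 with Tacr1 (rho = -0.11, adjusted permutation p = 0.585 and 0.515, 4 relations). With Fgf23 it had r = -0.05 and rho = -0.20 (adjusted permutation p = 0.729 and 0.364). Without the 2 arrays farthest from the median of the gene, r was -0.27 for Tacr1 and -0.27 for Fgf23. Of the 4 relations with array SD the highest was that with Dmbt1 (r = 0.33, rho = 0.32, adjusted permutation p = 0.154 and 0.167). The granulocyte level itself was not tested against the SD of the array. In the narrow arrays, all among the 35 without EPO, its deviations from the group mean were 0.20, 0.14, 0.26 and 0.09. In the same order these narrow arrays deviated by 0.14, 0.04, 0.30 and 0.10 for Fgf23 and by -0.003, 0.08, 0.32 and 0.24 for Tacr1. Among the other arrays both directions occurred. An EPO array at 72 h with an SD deviation of -0.05 had a granulocyte deviation of -0.51. A vehicle array at 24 h with an SD deviation of 0.07 had a granulocyte deviation of -0.17. The part of array SD in the relations of Tacr1 and Fgf23 with the granulocyte level was not tested.

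**Figure D5:**
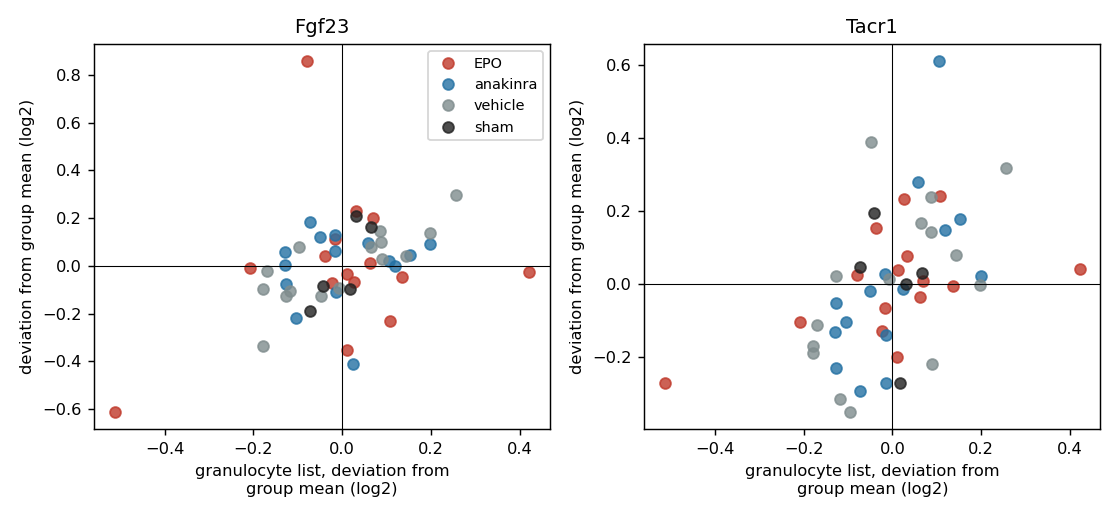
Deviation of Fgf23 (left) and Tacr1 (right) from the group mean (y axis, log2) against the deviation of the granulocyte list level (x axis, log2) in 50 arrays, coloured by treatment. For Tacr1 the points rise from lower left to upper right (r = 0.48), and for Fgf23 the relation did not pass over all arrays (r = 0.36).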

How the data were processed

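Liver RNA of 50 rats was hybridised to Rat Gene 1.0 ST arrays, 1 per animal. The deposited values are log2 RMA values made by the authors with RMA in oligo, per the submitters' processing notes; no version is given there. Of 29214 probes, 15310 had a single symbol, and the probe with the highest mean left 14506 genes. Each of the 4 genes had 1 probe. Differences were fitted with limma 3.58.1 in R 4.3.3 (lmFit, eBayes, 1 mean per group, 50 arrays, 40 residual degrees of freedom). P-values are two-sided and adjusted by Benjamini-Hochberg over all genes of a comparison. The procedure was tested on simulated data. Precision is limited by the number of arrays. Members, lists and comparisons were chosen with earlier results of these data known. Named genes are the 4 genes, list genes that passed in EPO against vehicle or had the smallest p, family members and granulocyte markers for comparison (added after their values were seen), and the 5 genes with the highest correlation with each. Within-group correlations were tested with 100000 permutations within groups. Alternatives were array weights, trend and robust options, only the groups compared, the replicate number as a block, median centring, the mean over probes, a filter on dim genes, leaving out each array, and leaving out arrays with a low SD. Replicate numbers were not treated as pairs in the main fit. Deviations of same-numbered arrays correlated from -0.26 to 0.62. Arrays with different numbers were not compared in this way, so shared handling by number is not settled. Symbols and promoters are from RefSeq (GRCr8).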

Additional observations from a re-analysis of the deposited data

Results flagged for a closer look

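Among 40 sets of 5 values (4 genes in 10 groups), 3 had an array whose gap to the nearest other array exceeded Dixon's limit of 0.71 of the range; chance flags about 1 in 20. Fgf23 was 5.43 in EPO array 4 at 7 days, where the gap was 0.772 of the range, and 4.82 in anakinra array 4 at 24 h (0.877). Egr1 was 9.0 in sham array 5 (0.802). Without that sham array, the Egr1 difference of anakinra minus sham at 72 h was 0.75 in place of 0.57 and did not pass either.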

How the results depend on the processing

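The EPO minus vehicle differences of the 4 genes kept their direction at 24 h and 72 h under every alternative in which the gene was kept, between 0.73 and 0.90 for Fgf23, 0.55 and 0.68 for Tacr1, 0.94 and 1.24 for Egr1, and 0.64 and 0.91 for Dmbt1 at 24 h. At 72 h they lay between 0.98 and 1.34 for Fgf23, 1.11 and 1.30 for Tacr1, 0.03 and 0.41 for Egr1, and 0.59 and 0.79 for Dmbt1. Leaving out dim genes kept only Egr1 of the 4. At 7 days Fgf23 ranged from -0.11 to 0.02. Counts of genes called moved more. At 24 h the 4 genes called became 23 with array weights, 0 with only the groups compared (fewer arrays), 2 with dim genes left out (fewer genes), 2 without the narrow arrays, and 0 to 5 when 1 array was left out. At 72 h the 395 became 53 with only the groups compared, 175 with dim genes left out, and 205 (without vehicle array 2) to 1520 (without EPO array 1) when 1 array was left out. At 7 days the 53 ranged from 34 (without EPO array 1) to 56. The cause of the other shifts was not tested.

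Of the 4 genes, 1 (Egr1) passed in anakinra against sham at 72 h with array weights, and 0 to 1 (Tacr1, without anakinra array 5) passed in anakinra against vehicle at 7 days when 1 array was left out. The within-group r of Tacr1 with the granulocyte level was 0.43 without the narrow arrays. Small differences that were not called changed sign. Tacr1 in anakinra minus sham at 7 days was -0.04 with array weights and -0.12 to 0.10 with 1 array left out. Dmbt1 in anakinra minus vehicle at 72 h was -0.07 with array weights, -0.14 without the narrow arrays and -0.11 to 0.10 with 1 array left out, and Tacr1 there was 0.03 without the narrow arrays. With 1 array left out, Fgf23 in anakinra minus sham was -0.03 to 0.12 at 24 h, Egr1 was -0.25 to 0.01 at 7 days, and Dmbt1 was -0.05 to 0.18 at 72 h, and -0.05 to 0.17 in vehicle minus sham at 72 h.

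With the replicate number as a block, 4, 389 and 52 genes were called in EPO against vehicle at 24 h, 72 h and 7 days, the differences of the 4 genes were as without it (0.81 for Fgf23 at 24 h), and no call changed for them. The numbers share no stated source, and same-numbered arrays did not all correlate.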
